A study of Mus musculus with 21 samples.

Results

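Of the 20634 genes that had reads in both deposited tables of mouse kidney RNA-seq, 10 genes of oxygen sensing and its response were taken by their symbols: Epo, Hif1a, Epas1, Egln1, Egln3, Vegfa, Car9, Bnip3, Adm and Ndrg1. All 10 were found in both tables. The kidneys came from female mice that lack the apolipoprotein E gene (apoE knockout on a C57BL/6J background), a genotype that all groups share. From 4 weeks of age the mice were fed for 14 weeks, and kidneys were taken at 18 weeks. The Con group (5 mice) was fed the control diet, the Ade group (6 mice) a diet with adenine, which injures the kidney, and the Ade + IMC group (6 mice) adenine with iodomethylcholine (IMC), an inhibitor of the bacterial enzyme that forms trimethylamine in the gut. A further group of 4 mice, Con + IMC, was not analysed here, so IMC is described only on top of adenine. The study asked whether IMC prevents the chronic kidney disease that adenine causes.

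In the kidney, oxygen is sensed by prolyl hydroxylases of the EGLN family, which mark the alpha subunits of the hypoxia-inducible factors (HIF1A and EPAS1, also called HIF-2 alpha) for destruction while oxygen is present. When oxygen falls, the alpha subunits persist and bind short DNA elements near their target genes. Among these are Epo, which interstitial cells of the kidney use to drive red cell production, and genes of blood vessel growth, acid handling and mitochondrial turnover. HIF activity is set mostly by protein stability, which RNA-seq does not measure.

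Reads counted to the genes of the deposited tables, summed per mouse, were 7716126 to 11680809 in the Con group. They were 5444833 to 7673215 in the Ade group and 5728589 to 8305968 in the Ade + IMC group. Levels are given as CPM, counts per 1000000 reads after 1 TMM scaling of all 17 mice, and, where genes are set against each other, as RPKM, which is CPM per kilobase of exon. A gene counts as called where its p-value, adjusted by Benjamini-Hochberg over all genes tested, was below 0.1. Each library carried its own mouse number and was counted as 1 mouse. The labels do not say whether cages or litters were shared. The tissue was whole kidney, in which fewer cells of a type and less RNA per cell cannot be told apart.

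In the Ade kidneys, 7 of the 9 genes that could be tested were lower than in the Con kidneys and 0 were higher: Ndrg1, Bnip3, Vegfa, Car9, Egln1, Epas1 and Egln3. The falls ranged from 2.24-fold for Ndrg1 to 1.30-fold for Egln3. Hif1a and Adm did not pass the test, and Epo had too few reads to be tested. For comparison, 32.2% of the 14612 genes tested by edgeR's quasi-likelihood test were called lower in the Ade group, and 35.1% were called higher. The median log2 fold change was -0.62 over the 9 genes and 0.02 over all genes tested. For 6 of the 9 genes every Ade mouse lay below every Con mouse, which held for 20.6% of all genes tested.

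The stretches before the transcription start of 5 of these genes are shown, since the genes differed in how they moved and share the core letters to which HIF is known to bind. Bnip3, Egln1 and Egln3 were called lower in the Ade group, and Hif1a and Adm were not. The sequences are from RefSeq on GRCm38.p6, on the strand of the gene and 5′ to 3′, and hold no exon of the gene annotated in GENCODE M21. The Hif1a stretch lies inside the gene as annotated there, which starts at position 73901375, and before the RefSeq start. Capitals mark the cores ACGTG and GCGTG on either strand.

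Bnip3 (chr7:138909520-138909756, minus strand): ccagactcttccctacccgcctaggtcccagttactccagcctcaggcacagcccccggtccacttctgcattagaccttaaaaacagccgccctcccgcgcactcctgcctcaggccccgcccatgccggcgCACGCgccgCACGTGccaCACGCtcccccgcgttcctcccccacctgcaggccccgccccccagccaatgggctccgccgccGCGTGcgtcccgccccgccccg

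Egln1 (chr8:124949325-124949504, minus strand): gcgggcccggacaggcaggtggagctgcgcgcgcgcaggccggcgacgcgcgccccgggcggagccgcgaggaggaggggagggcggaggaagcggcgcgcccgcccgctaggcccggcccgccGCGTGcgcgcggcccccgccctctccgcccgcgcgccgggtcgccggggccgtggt

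Egln3 (chr12:54203875-54204124, minus strand): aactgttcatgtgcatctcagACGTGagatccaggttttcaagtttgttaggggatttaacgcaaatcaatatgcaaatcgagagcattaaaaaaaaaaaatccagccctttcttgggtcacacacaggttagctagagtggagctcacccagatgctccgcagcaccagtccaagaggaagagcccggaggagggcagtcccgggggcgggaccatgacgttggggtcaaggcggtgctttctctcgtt

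Hif1a (chr12:73907617-73907866, plus strand): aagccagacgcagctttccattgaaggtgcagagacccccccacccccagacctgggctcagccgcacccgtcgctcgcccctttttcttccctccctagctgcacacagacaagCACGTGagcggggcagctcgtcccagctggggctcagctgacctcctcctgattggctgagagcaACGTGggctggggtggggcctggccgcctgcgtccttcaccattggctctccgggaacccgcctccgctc

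Adm (chr7:110627407-110627656, plus strand): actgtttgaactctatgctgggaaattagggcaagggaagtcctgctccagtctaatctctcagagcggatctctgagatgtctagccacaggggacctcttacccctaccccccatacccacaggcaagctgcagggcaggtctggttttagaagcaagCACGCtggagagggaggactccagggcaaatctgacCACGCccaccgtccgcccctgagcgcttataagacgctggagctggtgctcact

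The Bnip3 stretch held 5 matches, which partly overlap where ACGTG reads on both strands. The Hif1a stretch held 3 matches, the Adm stretch 2, and the Egln1 and Egln3 stretches 1 each. RefSeq windows were matched for 8 of the 10 genes, Epas1 and Ndrg1 being the others. Over the whole 250 bases before the start, each of the 8 had at least 1 match in at least 1 window, including Hif1a and Adm, which were not called. Vegfa had 2 start sites and matches before only 1 of them. Of that window, 218 bases are annotated exon of Vegfa itself. The only Car9 match, 18 bases before the RefSeq start, lies in the last 60 bases of the window, which are annotated exon of Car9. Of all 32851 windows of this length, 38.6% held at least 1 of the 2 cores (16.6% ACGTG and 28.2% GCGTG). These are matches of letters and do not show that a factor binds there.

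**Figure D1:**
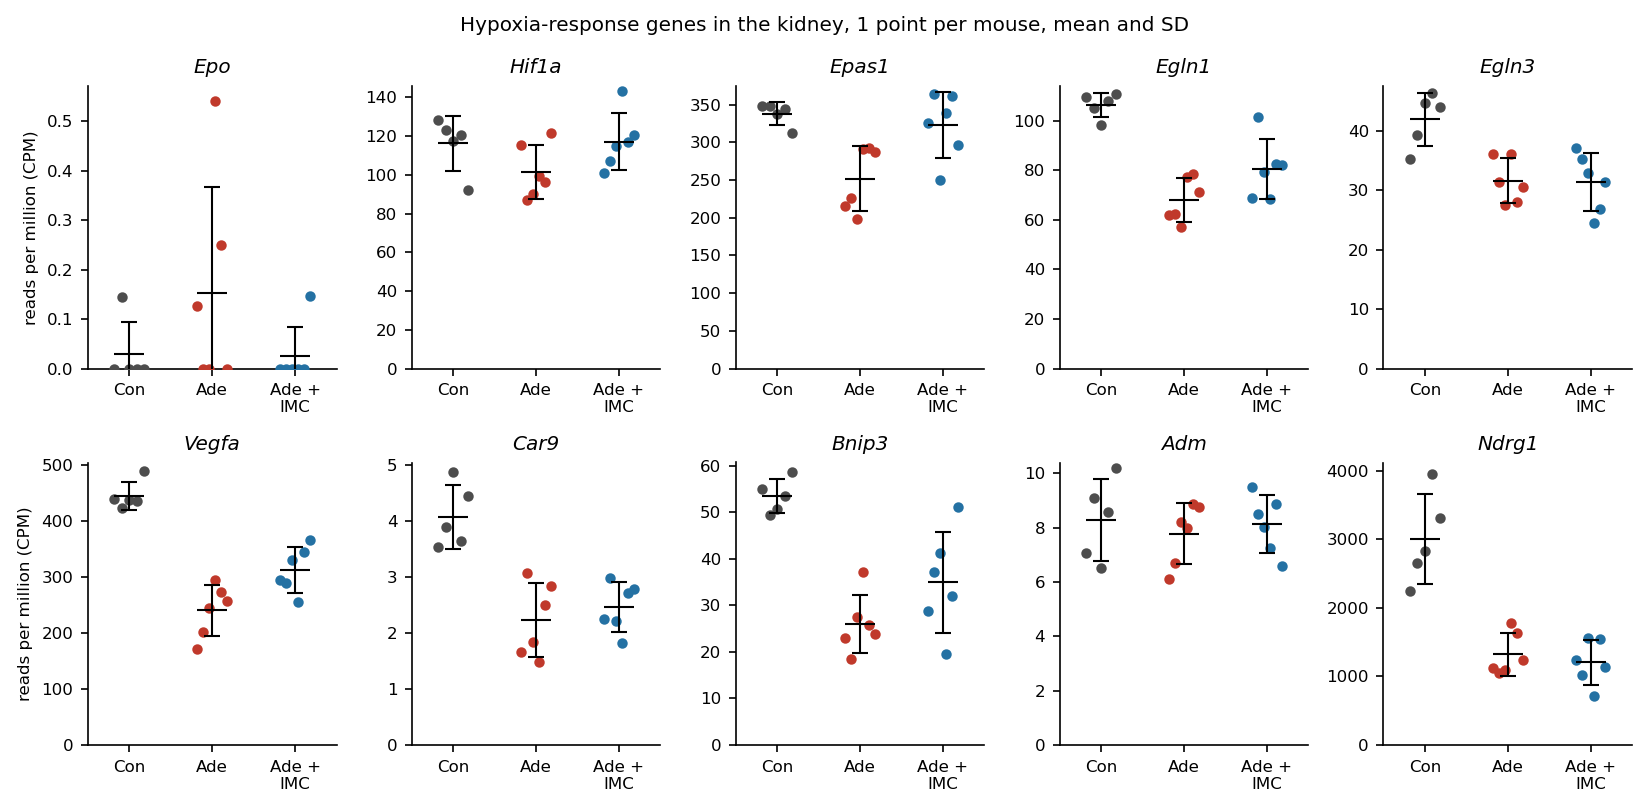
CPM (vertical axis, from 0, a scale of its own in each panel) of the 10 genes by group (Con, Ade, Ade + IMC), with 1 point per mouse, the mean as a horizontal line and the SD as the error bar. For Epas1, Egln1, Vegfa, Car9, Bnip3 and Ndrg1 the Con mice lie above all Ade mice, while for Adm the 3 groups overlap.

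Epo encodes erythropoietin, the hormone that the kidney releases to sustain red cell formation. It was close to undetected in every group. The 5 Con libraries held 1 Epo read in all, in mouse 202. The 6 Ade libraries held 7 reads, 4 of them in mouse 407, 2 in mouse 408 and 1 in mouse 207. The 6 Ade + IMC libraries held 1 read, in mouse 412. A library with 0 reads allows up to 3 reads, which is 0.257 to 0.389 CPM of the unscaled totals in the Con group, 0.391 to 0.551 in the Ade group and 0.361 to 0.524 in the Ade + IMC group, counting error only. Only mouse 407 was above 3 reads, so a difference in Epo was not detectable at this depth. With no filter on low counts edgeR gave adjusted p = 0.180 for the Ade and Con groups. The receptor gene Epor had 5.64 CPM ± 3.93 (SD, n = 5) in the Con group and 4.41 CPM ± 1.18 (SD, n = 6) in the Ade group, and did not pass edgeR's test (log2 fold change -0.31, adjusted p = 0.508).

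Hif1a and Epas1 encode the oxygen-labile alpha subunits. Hif1a measured 128, 123, 118, 121 and 92.1 CPM in the Con mice. In the Ade mice it ranged from 86.8 to 122 CPM around a median of 98.0. Con mice 301, 302 and 403 lay within the range of the Ade mice, so the groups overlapped. The log2 fold change was -0.17 (SE 0.11, 95% interval -0.40 to 0.06, edgeR adjusted p = 0.178). Without Con mouse 403 Hif1a was called lower (adjusted p = 0.0456), as it was without Ade mouse 409 (adjusted p = 0.0799).

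Epas1, the form found mainly in endothelial and interstitial cells, measured 348, 348, 337, 343 and 312 CPM in the Con mice. The Ade mice ranged from 198 to 292 CPM with a median of 257, all below the Con mice. Within the Ade group, mice 207, 208 and 308 had 215, 226 and 198 CPM, and mice 407, 408 and 409 had 291, 292 and 287 CPM. Epas1 was 1.32-fold lower in the Ade group (log2 fold change -0.40, SE 0.11, edgeR adjusted p = 0.00718).

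Egln1 and Egln3 encode prolyl hydroxylases that mark HIF alpha subunits, and both are themselves known HIF targets. Egln1 measured 109, 105, 98.5, 108 and 111 CPM in the Con mice and 57.3 to 78.7 CPM (median 66.9) in the Ade mice. The groups were far apart, and Egln1 was 1.54-fold lower in the Ade group (log2 fold change -0.62, SE 0.09, edgeR adjusted p = 4.35e-05). Egln3 measured 35.2, 39.3, 44.6, 46.2 and 44.0 CPM in the Con mice and 27.4 to 36.1 CPM (median 30.9) in the Ade mice. Here Con mouse 201 fell among the Ade mice, and the difference was 1.30-fold (log2 fold change -0.38, SE 0.10, edgeR adjusted p = 0.00435).

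Vegfa encodes the main growth factor for blood vessels, which in the kidney is made by podocytes and tubule cells. It measured 439, 423, 437, 436 and 488 CPM in the Con mice. The Ade mice ranged from 172 to 294 CPM with a median of 251. No Ade mouse reached the Con range, and the fall was 1.82-fold (log2 fold change -0.87, SE 0.13, edgeR adjusted p = 6.29e-05).

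Adm encodes adrenomedullin, a peptide that widens blood vessels. It measured 7.06, 9.10, 6.50, 8.57 and 10.2 CPM in the Con mice and 6.10 to 8.86 CPM (median 8.09) in the Ade mice. The groups overlapped almost wholly (log2 fold change -0.07, SE 0.16, 95% interval -0.41 to 0.27, edgeR adjusted p = 0.719).

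Car9 encodes a carbonic anhydrase of the cell surface, widely used as a hypoxia marker in tumours. It was low, with 27 to 36 reads per Con mouse and 11 to 27 reads per Ade mouse. The Con mice had 3.53, 3.90, 4.88, 3.64 and 4.44 CPM and the Ade mice 1.49 to 3.07 CPM (median 2.17). The ranges did not meet, and Car9 was 1.78-fold lower in the Ade group (log2 fold change -0.83, SE 0.22, edgeR adjusted p = 0.00475).

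Bnip3 encodes a protein of the outer mitochondrial membrane that directs mitochondria to degradation. It measured 54.9, 49.4, 50.6, 53.5 and 58.7 CPM in the Con mice, and 18.5 to 37.1 CPM (median 24.8) in the Ade mice. The highest Ade mouse, 407, stayed below the lowest Con mouse. Bnip3 was 2.03-fold lower (log2 fold change -1.02, SE 0.14, edgeR adjusted p = 2.66e-05).

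Ndrg1 encodes a cytoplasmic protein induced by stress and hypoxia. It was by far the most abundant of the 10, with 2251, 2660.1, 2829, 3959 and 3314 CPM in the Con mice. The Ade mice had 1049 to 1785 CPM (median 1182), all below the Con mice. Ndrg1 had the largest fall of the 9 genes tested, 2.24-fold (log2 fold change -1.16, SE 0.18, edgeR adjusted p = 1.14e-04).

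**Figure D2:**
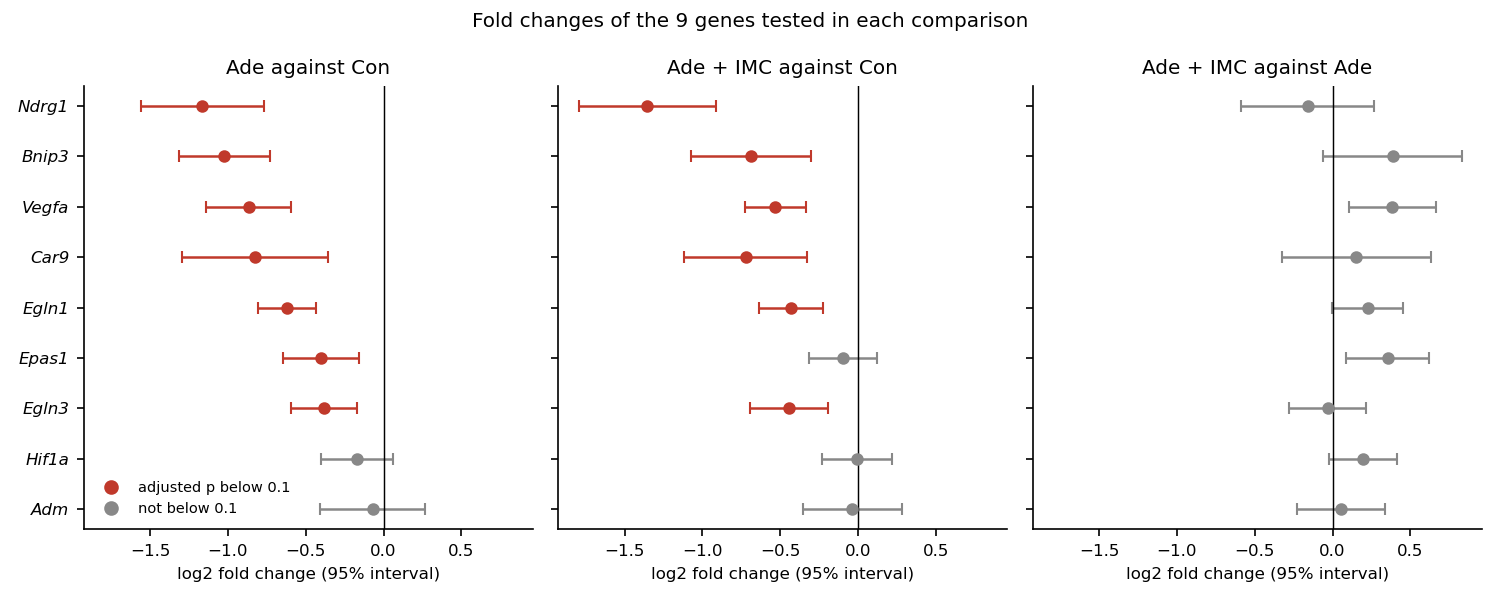
Log2 fold change (horizontal axis) of the 9 genes tested in each of the 3 comparisons, with 95% intervals, and red points where the adjusted p-value was below 0.1. In the Ade group 7 genes lie left of 0 with intervals that do not reach it, in the Ade + IMC group 6, and between the Ade + IMC and Ade groups no gene passes the threshold.

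The exons of Epas1, Egln1, Egln3, Vegfa and Adm share no bases with another gene in the GENCODE M21 annotation. Epo shares 104 exonic bases with Gnb2 on the same strand. Hif1a (478 bases), Car9 (214), Bnip3 (504) and Ndrg1 (556) share exonic bases mostly with antisense transcripts. Whether the counting used strand is not given in the sources used here, so reads of antisense partners could be included for Hif1a, Car9, Bnip3 and Ndrg1. Strand could not separate Epo from Gnb2, nor the 148 bases that Hif1a shares with Gm49321 on the same strand. How reads over 2 genes were counted there is not given, so they could be added or dropped. Bnip3 lies at chr7:138890836-138909519, Vegfa at chr17:46016993-46032369 and Ndrg1 at chr15:66929318-66969640, all on the minus strand (GRCm38).

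Per exonic length, the levels in the Con group descended from Ndrg1 (455 RPKM ± 99.5, SD) through Vegfa (104 ± 5.89), Epas1 (60.4 ± 2.70), Egln1 (29.6 ± 1.38), Bnip3 (23.6 ± 1.62), Hif1a (19.7 ± 2.40), Egln3 (15.7 ± 1.70), Adm (5.12 ± 0.929) and Car9 (1.77 ± 0.247) to Epo (0.0338 ± 0.0755). Over the 5 Con mice, the only neighbours in this order that overlapped were Hif1a and Egln3. In the Ade group Bnip3 (11.5 RPKM ± 2.76) fell behind Hif1a (17.2 ± 2.37) and Egln3 (11.9 ± 1.43), overlapping with both. In the same group Vegfa (56.1 RPKM ± 10.7) came to overlap with Epas1 (45.0 ± 7.72), and Egln1 (19.0 ± 2.46) with Hif1a.

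With IMC added to adenine, no gene of the set was called against the Ade group: limma with a trend called 0 of the 9 genes tested and 0% of all 14696. Among all genes 988 (6.72%) had an unadjusted p-value below 0.05. On the recovered reads edgeR also called 0 genes and DESeq2 called 37, none of them in the set. Vegfa and Epas1 had unadjusted p-values below 0.05 and both were higher in the Ade + IMC group, as were 3.37% of all genes tested. The lowest adjusted p-value of any gene was 0.601. The median log2 fold change over the 9 genes was 0.20, and 0.01 over all genes tested. In this comparison fold changes are on the scale of log2(normalized count + 1).

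Vegfa ranged from 255 to 365 CPM (median 312) in the Ade + IMC mice, where the Ade mice had 172 to 294 CPM. In the Ade + IMC group 4 of 6 mice were above every Ade mouse, and mice 212 and 311 lay within the Ade range. The log2 fold change was 0.38 (SE 0.13, 95% interval 0.10 to 0.66, limma adjusted p = 0.711). The two-sided exact permutation test over all 924 divisions of the 12 mice gave p = 0.0173, where 0.00216 is the smallest it can give.

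Epas1 ranged from 249.9 to 364 CPM (median 332) in the Ade + IMC mice and 198 to 292 CPM in the Ade mice, and 5 of 6 Ade + IMC mice were above every Ade mouse. The exception was mouse 310. The log2 fold change was 0.35 (SE 0.12, 95% interval 0.09 to 0.62, limma adjusted p = 0.711, exact permutation p = 0.0238).

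The mouse numbers begin with 2, 3 or 4, and the labels do not say what this digit stands for. All 3 Ade mice with the first digit 4 had higher Epas1, Egln1, Vegfa and Ndrg1 than the other Ade mice, and the Ade and Ade + IMC groups held 3 and 2 mice with this digit. When the digit was added to the limma fit, Vegfa was called higher in the Ade + IMC group (log2 fold change 0.42, adjusted p = 0.0906) along with 0.497% of all genes tested, while Epas1 was not (adjusted p = 0.137). Within the digits 2, 3 and 4 the Ade + IMC mice differed from the Ade mice by 0.64, 0.23 and 0.35 on the log2 scale for Vegfa and by 0.63, 0.54 and 0.15 for Epas1. The digit 2 held 2 mice of each group. The digit 3 held 1 Ade mouse and 2 Ade + IMC mice, so its differences rest on 1 Ade library. The exact permutation test over the 180 divisions within digits gave p = 0.0111 for Vegfa and p = 0.00556, the smallest it can give, for Epas1 and for Egln1. Over all 924 divisions the exact permutation test gave p = 0.0584 for Egln1.

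**Figure D3:**
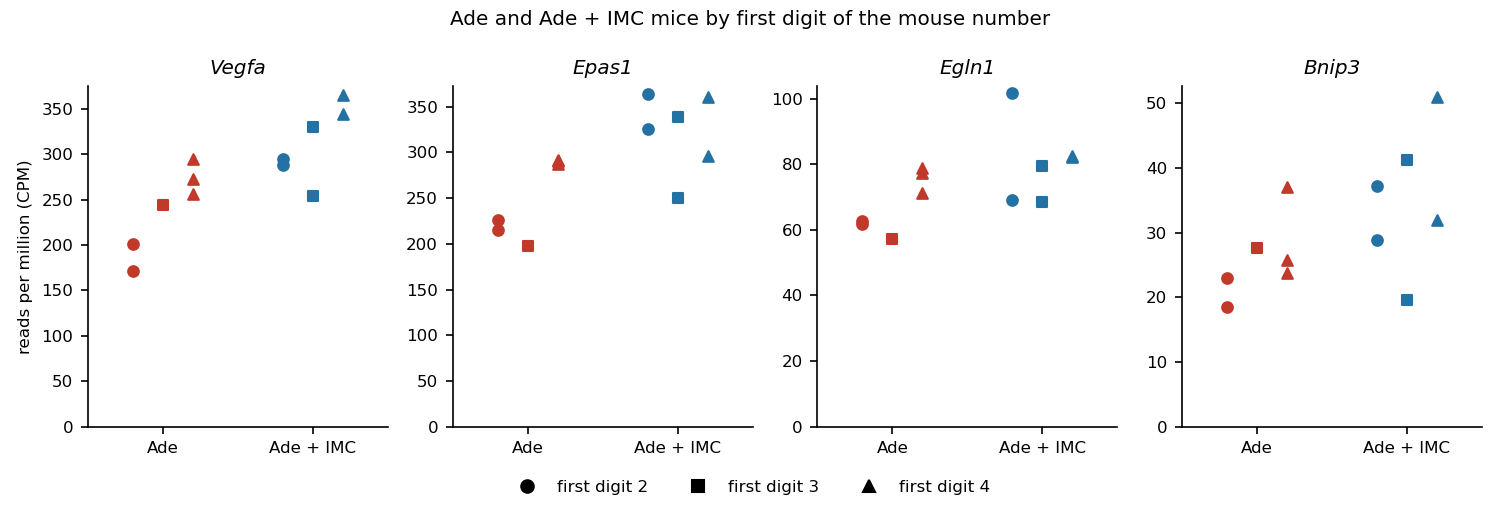
CPM (vertical axis, from 0) of Vegfa, Epas1, Egln1 and Bnip3 in the Ade and Ade + IMC mice, 1 point per mouse, with the marker shape giving the digit with which the mouse number begins. In the panel of Vegfa 4 of 6 Ade + IMC mice and for Epas1 5 of 6 lie above every Ade mouse.

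In the Ade + IMC mice Egln1 measured 68.6 to 102 CPM (median 80.8), and 4 of 6 mice were above every Ade mouse (log2 fold change against Ade 0.23, limma adjusted p = 0.741). Bnip3 spread widely, from 19.5 CPM in mouse 311 to 51.0 CPM in mouse 412 (median 34.5), so that a log2 fold change of 0.39 had an SE of 0.21 (adjusted p = 0.749). Hif1a measured 101 to 143 CPM (median 116, log2 fold change 0.20, adjusted p = 0.749). The remaining 4 genes had the smallest log2 fold changes and were not called. Car9 had 1.81 to 2.99 CPM (median 2.49, log2 fold change 0.15, 95% interval -0.32 to 0.63) and Adm 6.60 to 9.51 CPM (median 8.25, log2 fold change 0.05). Egln3 had 24.4 to 37.1 CPM (median 32.1, log2 fold change -0.03) and Ndrg1 722 to 1565 CPM (median 1188, log2 fold change -0.16, 95% interval -0.59 to 0.27). Mouse 311 was the lowest Ade + IMC mouse for 6 of the 9 genes, and the highest for Hif1a.

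Against the Con group, 6 of the 9 genes were lower in the Ade + IMC kidneys by limma and 0 were higher, where 31.7% and 31.4% of the 14551 genes tested were called lower and higher. The reads of both tables were scaled together for this comparison. Ndrg1 was 2.56-fold lower (log2 fold change -1.35, SE 0.20, limma adjusted p = 8.69e-05). Car9 (log2 fold change -0.72, adjusted p = 0.00439), Bnip3 (-0.69, adjusted p = 0.00511), Vegfa (-0.53, adjusted p = 2.40e-04), Egln3 (-0.44, adjusted p = 0.00545) and Egln1 (-0.43, adjusted p = 0.00161) were the others. For Ndrg1, Vegfa and Car9 all Ade + IMC mice lay below all Con mice, which held for 16.5% of all genes tested.

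Epas1, called lower in the Ade group, did not pass the test here (log2 fold change -0.09, 95% interval -0.31 to 0.12, limma adjusted p = 0.451). The direct test of the Ade + IMC and Ade groups for Epas1 is the one given above, which missed the threshold. Hif1a (log2 fold change -0.01, adjusted p = 0.964) and Adm (-0.04, adjusted p = 0.853) did not pass either. The Ade and Ade + IMC comparisons share the Con mice and are therefore not independent.

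Of 10 other components of oxygen sensing, all tested, 2 were higher and 4 lower in the Ade group (median log2 fold change -0.07), where 35.1% and 32.2% of all genes were. Arnt2, a partner subunit of HIF, was higher (log2 fold change 0.50, edgeR adjusted p = 0.00113), as was Vhl, which recognises hydroxylated HIF (0.19, adjusted p = 0.0520). Cul2, the scaffold of the ubiquitin ligase that contains VHL, was lower (-0.57), as were Eloc of the same ligase (-0.17), the asparaginyl hydroxylase Hif1an (-0.28) and the third prolyl hydroxylase Egln2 (-0.22). Arnt, Hif3a, Elob and Rbx1 did not pass the test. Against Con, the Ade + IMC group had Arnt2 and Hif3a higher and Cul2 and Hif1an lower, and 6 of the 10 were not called. Of all genes, 31.4% were called higher and 31.7% lower in that comparison.

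Of 20 genes of sugar use that HIF is known to raise, all tested, 7 were higher and 8 lower in the Ade group (median log2 fold change -0.17), close to the shares over all genes (35.1% higher and 32.2% lower). Hexokinase Hk2 rose from 1.60 to 26.5 CPM, the enolase Eno2 from 2.25 to 15.5 CPM and the lactate exporter Slc16a3 from 2.14 to 8.19 CPM (log2 fold changes 4.12, 2.79 and 1.96). Tpi1 fell from 380.3 to 248 CPM, Pdk1 from 95.3 to 69.1 CPM and Pgk1 from 15.9 to 9.24 CPM. Tpi1 and Pgk1 have processed copies elsewhere in the genome that can take reads, so their levels are uncertain. In the Ade + IMC group 7 were higher and 6 lower than in Con (31.4% and 31.7% of all genes), and Hk2 was at 29.1 CPM.

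Of 30 other hypoxia targets tested out of 31 listed, 10 were higher and 16 lower in the Ade group (median log2 fold change -0.29), where all genes had 35.1% higher and 32.2% lower. Against Con, 9 were higher and 14 lower in the Ade + IMC group, where all genes had 31.4% and 31.7%. Those that rose included the collagen crosslinker Lox (8.23 to 64.8 CPM) and the mTORC1 inhibitor Ddit4 (15.8 to 53.4 CPM). Igfbp3 fell from 309.7 to 108 CPM, the lipoprotein receptor Vldlr from 154 to 68.9 CPM and Cited2, which competes with HIF for its coactivator, from 158 to 103 CPM.

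Among genes related to Vegfa, 4 of 9 were higher and 2 lower in the Ade group (median log2 fold change 0.25), beside 35.1% and 32.2% of all genes. The main VEGF receptor Kdr fell from 130.2 to 64.6 CPM (log2 fold change -0.99, edgeR adjusted p = 7.85e-04) and Flt1 from 126 to 83.8 CPM (-0.57). The placental growth factor Pgf rose from 1.09 to 2.36 CPM (log2 fold change 1.13), and Vegfd, Nrp1 and Nrp2 were also higher. In the Ade + IMC group Kdr was at 88.7 CPM, lower than in Con (log2 fold change -0.62, limma adjusted p = 0.0177), with 4 of the 9 genes higher and 1 lower, beside 31.4% and 31.7% of all genes.

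While Adm did not pass the test, genes of its receptors did. The receptor subunit Calcrl had 29.1 CPM in the Con group and 33.9 CPM in the Ade group (adjusted p = 0.309). Its partners Ramp2 and Ramp3, which make it an adrenomedullin receptor, rose from 17.1 to 27.8 CPM and from 9.31 to 20.97 CPM (log2 fold changes 0.72 and 1.21). Ramp1 (log2 fold change 2.13) and Csf2rb (3.57), a cytokine receptor chain of myeloid cells, rose as well, and the related peptide Adm2 fell (-1.06). In all 4 of the 8 genes of adrenomedullin and erythropoietin signalling were higher and 1 lower in the Ade group (median log2 fold change 0.48, 35.1% and 32.2% of all genes), and 5 were higher and 1 lower in the Ade + IMC group against Con (31.4% and 31.7% of all genes).

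The relatives of Bnip3, Ndrg1 and Car9 are read against the 32.2% of all genes called lower and 35.1% called higher in the Ade group. Of 7 genes of mitophagy 6 were lower and 0 higher (median log2 fold change -0.51), led by Bnip3l (89.9 to 55.8 CPM), Pink1 (291 to 160.3 CPM) and Bcl2l13 (64.6 to 44.8 CPM). Ndrg2 and Ndrg3 were lower (log2 fold changes -0.83 and -0.62) and Ndrg4 did not pass the test (-0.53, adjusted p = 0.299). Of 8 carbonic anhydrases tested out of 9, 6 were lower and 2 higher (median log2 fold change -1.12), with Car5b, Car12 and Car4 at log2 fold changes of -1.13, -1.13 and -1.11, and Car13 and Car3 at 1.96 and 2.08. Against Con, the Ade + IMC group had 5 mitophagy genes lower and 1 higher, 2 Ndrg genes lower, and 6 carbonic anhydrases lower and 2 higher, beside 31.7% lower and 31.4% higher of all genes. Against Ade, Ndrg2 had an unadjusted p of 5.59e-04 (log2 fold change 0.54) that did not hold after adjustment (limma adjusted p = 0.601).

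Transcription factors known to act on the Epo gene were measured although Epo itself was not. In the Ade group Hnf4a fell from 953 to 288 CPM (log2 fold change -1.70), Gata2 from 50.1 to 35.2 CPM and Rxra from 159 to 107 CPM, while Nr2f1 (log2 fold change 1.26) and Rara (0.77) were higher. These 5 were the called ones of 7 tested out of 8 listed (median log2 fold change -0.07), with 2 higher and 3 lower beside 35.1% and 32.2% of all genes. Against Con, 3 were higher and 2 lower in the Ade + IMC group, beside 31.4% and 31.7% of all genes. Hnf4a is also a factor of proximal tubule cells.

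**Figure D4:**
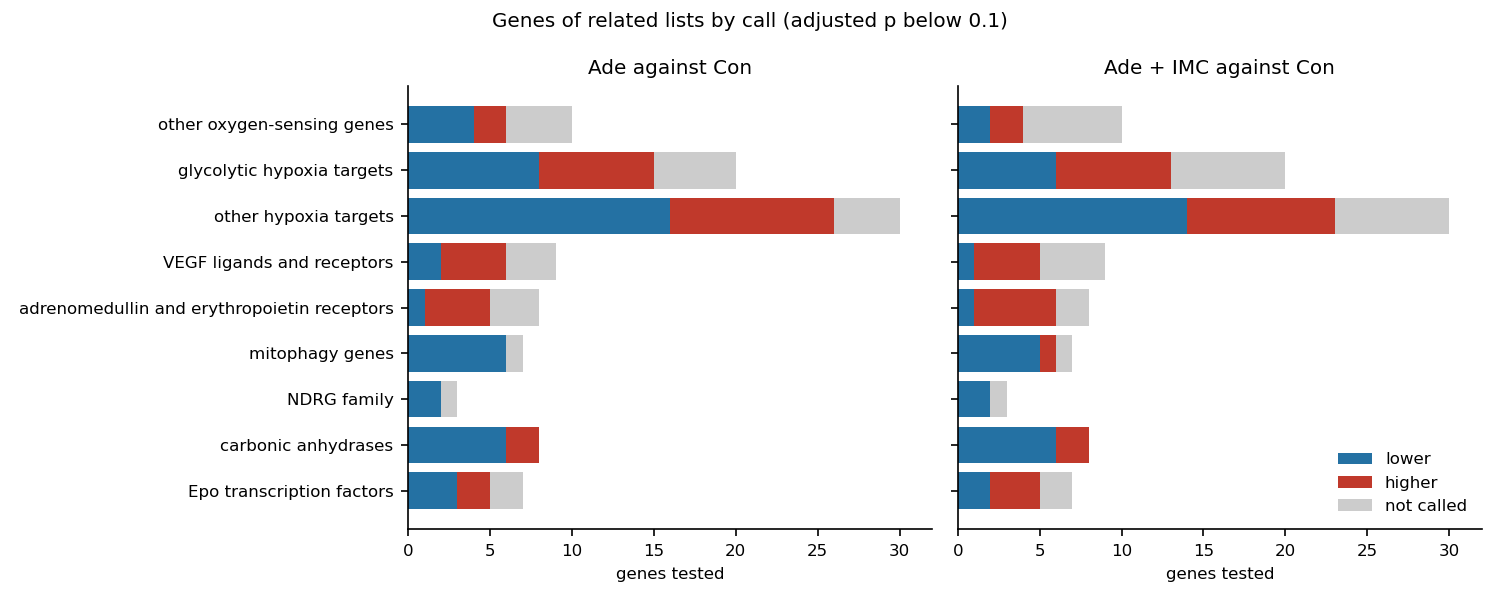
Number of genes tested (horizontal axis) in 9 lists related to the 10 genes, divided into called lower, called higher and not called, for the Ade group (left) and the Ade + IMC group (right) against Con. Mitophagy genes and carbonic anhydrases have mostly lower calls, and glycolytic hypoxia targets have 7 higher and 8 lower calls in the Ade group.

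Between the Ade + IMC and Ade groups limma called 0 genes in each of these 9 lists, with median log2 fold changes of 0.04 (oxygen sensing), 0.12 (glycolysis), 0.07 (other targets), 0.12 (VEGF), 0.01 (adrenomedullin and erythropoietin receptors), 0.12 (mitophagy), 0.27 (NDRG), 0.09 (carbonic anhydrases) and 0.21 (Epo factors). The number of genes with an unadjusted p below 0.05 was 6 of 20 for glycolysis, 4 of 30 for other targets and at most 1 in each of the other lists, beside 6.72% of all genes.

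Markers of several cell types moved with these results, and their part in them was not tested. Each marker count for the Ade group stands beside 35.1% of all genes called higher and 32.2% called lower. All 10 proximal tubule markers had reads, as kidney tissue should. In the Ade group 10 of 10 proximal tubule markers were lower, with a summed level of 17692 to 24098 CPM in the Con mice, 2749 to 10596 CPM in the Ade mice and 4612 to 9737 CPM in the Ade + IMC mice. Of the other tubule lists, 3 of 5 thick ascending limb markers (1 was higher), 3 of 4 distal convoluted tubule, 4 of 4 principal cell and 4 of 5 intercalated cell markers were lower. Markers of interstitial fibroblasts and pericytes, the cells that include the Epo producers, were higher for 8 of 10 and lower for 1. The lower one was Nt5e (77.3 CPM in Con and 57.4 CPM in Ade, edgeR adjusted p = 0.0316). The 10 markers summed to 380.3 to 422 CPM in Con and 2144 to 2639 CPM in Ade mice. In Ade + IMC mice the sum was 1591 to 2396 CPM. From Con to Ade, the collagen genes in this sum rose from 45.3 to 819 CPM (Col1a1) and from 53.1 to 912 CPM (Col3a1). The sum does not measure the Epo-producing cells. Markers of myofibroblasts were higher for 3 of 5, macrophages 8 of 8 and lymphoid cells 7 of 7. The counts for podocytes (2 of 7 higher, 0 lower) and endothelial cells (3 of 8 lower, 0 higher) were near the shares over all genes in the direction called. Endothelial markers summed to 753 to 1069 CPM in Con, 531 to 953 CPM in Ade and 637 to 1234 CPM in Ade + IMC mice. In the Ade group adipocyte and adrenal markers each had 1 gene tested, the first higher and the second lower, and 1 of 6 and 2 of 5 of these markers were not in both tables. Against Con, 5 adipocyte markers were tested in the Ade + IMC group and 0 were called by limma (0 with an unadjusted p below 0.05). Their sum stood apart in some libraries: it was 588, 180.2 and 82.3 CPM in Ade + IMC mice 212, 211 and 410 and at most 3.96 CPM in the other Ade + IMC mice, 150.3 CPM in Ade mouse 207, and at most 13.4 CPM in the Con mice. Car3, also an abundant gene of adipocytes, was highest in the same 3 Ade + IMC mice (196, 104 and 57.4 CPM), and its call as higher than Con (limma adjusted p = 0.0679) was lost without mouse 212 (0.135), 211 (0.143) or 410 (0.122), and without Con mouse 201 (0.135), 301 (0.112) or 302 (0.122). Of the 10 genes, the 6 called against Con kept their call without mouse 212, 211 or 410.

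Red cell genes, the end point of erythropoietin action, were low in the Ade kidneys. All 5 erythroid markers tested out of 6 (the globins, whose near-identical copies share reads, and Alas2) were lower than in Con (32.2% of all genes), with a summed level of 186 to 249 CPM in the Con mice and 15.8 to 104 CPM in the Ade mice. In the Ade + IMC mice the sum was 80.8 to 228 CPM, all 5 were above Ade with an unadjusted p below 0.05 (3.37% of all genes), and 0 were called after adjustment (limma, lowest adjusted p = 0.601). All 5 were lower than in Con, where 31.7% of all genes were. Blood left in the tissue was not measured separately.

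**Figure D5:**
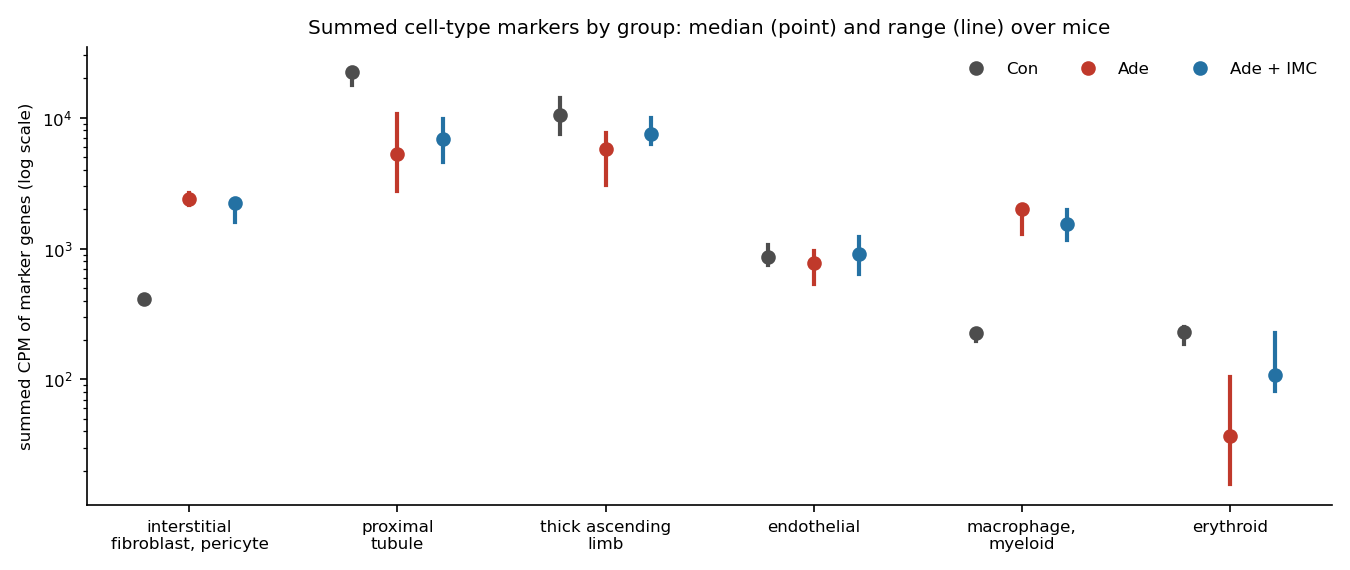
Summed CPM of marker genes (vertical axis, log scale) for 6 cell types, with the median as a point and the range over mice as a line, by group. Proximal tubule and erythroid sums are lower in both adenine groups than the Con median, and fibroblast and myeloid sums are higher.

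Genes whose levels went most closely with each of the 9 over the 17 mice, after the mean of each group was taken off, were sought among 14672 genes. Epas1 went most closely with Kdr (Pearson r = 0.95) and Cyyr1 (0.91), Vegfa with Pfn3 (0.97) and Isoc2a (0.96), and Bnip3 with mt-Cytb and Slc6a18 (both 0.93). Hif1a went with Matr3 and Oxr1 (both 0.95), Egln1 with Atpaf2 (0.90) and Cavin2 (0.88), and Ndrg1 with Pctp and Cers2 (both 0.87). For Adm (Pianp, 0.83 and Maob, 0.77), Egln3 (Prkag2os2, 0.80 and Cfap157, 0.79) and Car9 (Zfp532, 0.78 and Hs1bp3, 0.77) the values were lower. These are the 2 highest of 14672 values for each gene, from the same libraries, and are given as a description.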

How the data were processed

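The authors deposited 2 count tables. The first held raw counts (Con and Ade mice). The second table, as deposited by the authors, held a signal, each count divided by its library's DESeq2 size factor, in the Ade and Ade + IMC mice. Each normalized value above 0 (100% of them) was a whole multiple of 1 read, tolerance 0.01, so reads were recovered. For the Ade mice, present in both tables, 0 of 123804 values disagreed. Per the submitters' processing notes the tools were Trimmomatic 0.39, FastQC 0.11.8, Bowtie2 2.2.5, HTSeq 0.9.1 and DESeq2, while the paper's methods name STAR as the aligner. The use of strand is not given in the sources used here. The authors also deposited gene names and other columns, per the file headers a log2 fold change, a Wald score and p-values of their own comparison, of which only the gene names were used.

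The 10 genes and all lists (9 gene lists, 14 marker lists) were chosen with earlier results of these data known. For Ade against Con edgeR 4.0.16 was used (quasi-likelihood, TMM, filterByExpr). For the Ade + IMC group limma 3.58.1, with its trend option, was run on log2(value + 1) over genes with a mean of at least 10, against Ade on the deposited normalized counts and against Con on the joined reads divided by size factors. All models ran in R 4.3.3 over whole tables, were tested on simulated data, and used an adjusted p-value below 0.1. Within a list, genes outside the small families were named if among the 3 with the lowest adjusted p of those called in a direction. Calcrl, Epor and Ndrg4 come from families of which any tested gene could be named. The result of 1 gene that this rule names is not reported here. Alternatives were DESeq2 1.42.0, other scalings, filters, pseudocounts and thresholds, the first digit as a block, and each mouse left out.

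Coordinates and exonic lengths are from GENCODE M21 on GRCm38. Of the 21657 gene IDs in either table, 20981 had a symbol in the authors' table, 373 in a reference table and 303 had none. P-values measure the spread between mice as labelled. The lowest chi-square per degree of freedom between 2 libraries of a group was 4.21, so none was counted as a repeat.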

Additional observations from a re-analysis of the deposited data

Results flagged for a closer look

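Of 30 sets of values (10 genes in 3 groups), 3 had a mouse far from the others of its group, where chance alone gives about 1 in 20. Vegfa in Con mouse 403 was 488 CPM, above the other Con mice at 423 to 439 CPM. The other cases were Epo at 0.144 CPM in Con mouse 202 and 0.147 CPM in Ade + IMC mouse 412, each a single read in a group otherwise at 0. Without Con mouse 403 the calls of the 7 genes lower in the Ade group held.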

How the results depend on the processing

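The 7 genes called lower in the Ade group, and the 6 called lower in the Ade + IMC group against Con, held their direction and call under every alternative run. Over 522 values of single genes, 505 kept direction and call, 0 lost a call, 3 gained one and 14 changed sign, all of genes that were not called. Leaving out single mice gave 9145 to 9848 called genes (7 to 8 of the set) for Ade against Con, 8467 to 9213 (6 to 6) for Ade + IMC against Con and 0 to 0 (0 to 0) for Ade + IMC against Ade. In the last comparison DESeq2 called 37 genes and the first digit as a block 133, which included 1 of the set, Vegfa. The exact permutation p of Egln1 was 0.00556 within digits. Hif1a changed sign with the block (log2 fold change 0.0137, Ade + IMC against Con). With mice left out, the range was -0.0919 to 0.0333 for Hif1a and -0.121 to 0.0385 for Adm (Ade + IMC against Con), -0.146 to 0.0137 for Adm (Ade against Con), and -0.0121 to 0.115 for Adm and -0.0852 to 0.0337 for Egln3 (Ade + IMC against Ade). The cause was not tested. No paired analysis was possible because the replicate numbers were given in accession order. Depth limits Epo, and Car9 rests on at most 36 reads per mouse.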
